A study of Mus musculus with 4 samples.

Results

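The genes described here are 10 transcripts of the hypoxia response that lie outside glycolysis: Hif1a, Egln1, Egln3, Vegfa, Bnip3, Pdk1, P4ha1, Ndrg1, Ddit4 and Ankrd37. They were taken by name from the gene table of the series, which held all 10 of them among its 10716 genes. The libraries were made from fetal liver of C57BL/6 mice at embryonic day 14.5, using erythroid cells that flow cytometry isolated as positive for the R26eYFP reporter. Replicates 1 and 2 are labelled knockout, a group of 2 libraries in which Adar, encoding the adenosine-to-inosine editing enzyme ADAR1, is targeted with Cre recombinase driven from the erythropoietin receptor gene Epor. Replicates 3 and 8 are the 2 control libraries. The first group carries the genotype label Epor-Adar / +, and whether 1 or both alleles of Adar were lost is not stated. That of the controls reads wild type, and whether the controls carried Cre is not stated, although the sort on YFP is described for all 4 libraries. Because Cre is driven from Epor, any deletion depends on the cells in which that gene is active.

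Hypoxia-inducible factors (HIF) are transcription factors made of an oxygen-regulated alpha subunit, such as the product of Hif1a, and the constant partner ARNT. When oxygen is present, the prolyl hydroxylases encoded by the Egln genes mark the alpha subunit, the VHL ubiquitin ligase binds it and it is degraded, so Hif1a is regulated mainly at the level of its protein. When oxygen is scarce, the alpha subunit persists and the dimer binds short DNA sites with the core ACGTG or GCGTG, switching on genes for blood vessel growth, glucose use, mitochondrial turnover and collagen modification. In the embryo, HIF signalling also takes part in red cell production through erythropoietin and iron supply.

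In this comparison 9 of the 10 genes had higher values in each knockout-labelled library than in either control, an ordering found in 27.4% of all genes in the table. The largest differences were in Ddit4, Egln3, Ndrg1 and Bnip3, whose mean levels were 50.7, 19.5, 13.1 and 10.8 times those of the controls. Vegfa, Ankrd37 and P4ha1 followed at 6.70, 7.56 and 6.45 times, Egln1 and Pdk1 at 1.78 and 1.55 times, and Hif1a was level at 0.938 times. The knockout-labelled libraries differed widely from each other. Replicate 1 held at least 2 times the level of replicate 2 in 7 of the 10 genes, against 6.06% of all genes.

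With Benjamini-Hochberg adjustment across the whole table, edgeR's quasi-likelihood test called 0 genes of the set (0 of 10, against 0.103% of all genes called, and adjusted p from 0.20 to 0.82). At an unadjusted p under 0.05, 9 of the 10 were higher, against 9.82% of all genes, and 0 were lower, against 2.08%. DESeq2 called 7 of the 10 higher and edgeR's likelihood ratio test also called 7, where these tools called 3.29% and 3.09% of all genes higher. limma-voom called 0, with 0.0747% of all genes called higher. In the authors' deposited table the adjusted p of the 10 genes ran from 0.337 for Bnip3 to 0.838 for Hif1a. The fit had 2 libraries a group and 2 residual degrees of freedom. The labels do not say whether the libraries came from separate embryos, and each p-value therefore speaks only of the spread among these 4 samples.

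Levels are given as CPM, which divide each count by the scaled size of its library, and the table holds only genes above 1 CPM in at least 2 libraries. Ddit4 and Egln3 were under 1 CPM in both controls and so entered it by their level in the other group alone, where they had to be higher. Among the other 8 genes, 7 had both knockout-labelled libraries above both controls, against 26.1% of the genes with a control library of at least 1 CPM. The same 7 were higher at an unadjusted p under 0.05, against 8.64% of those genes.

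**Figure D1:**
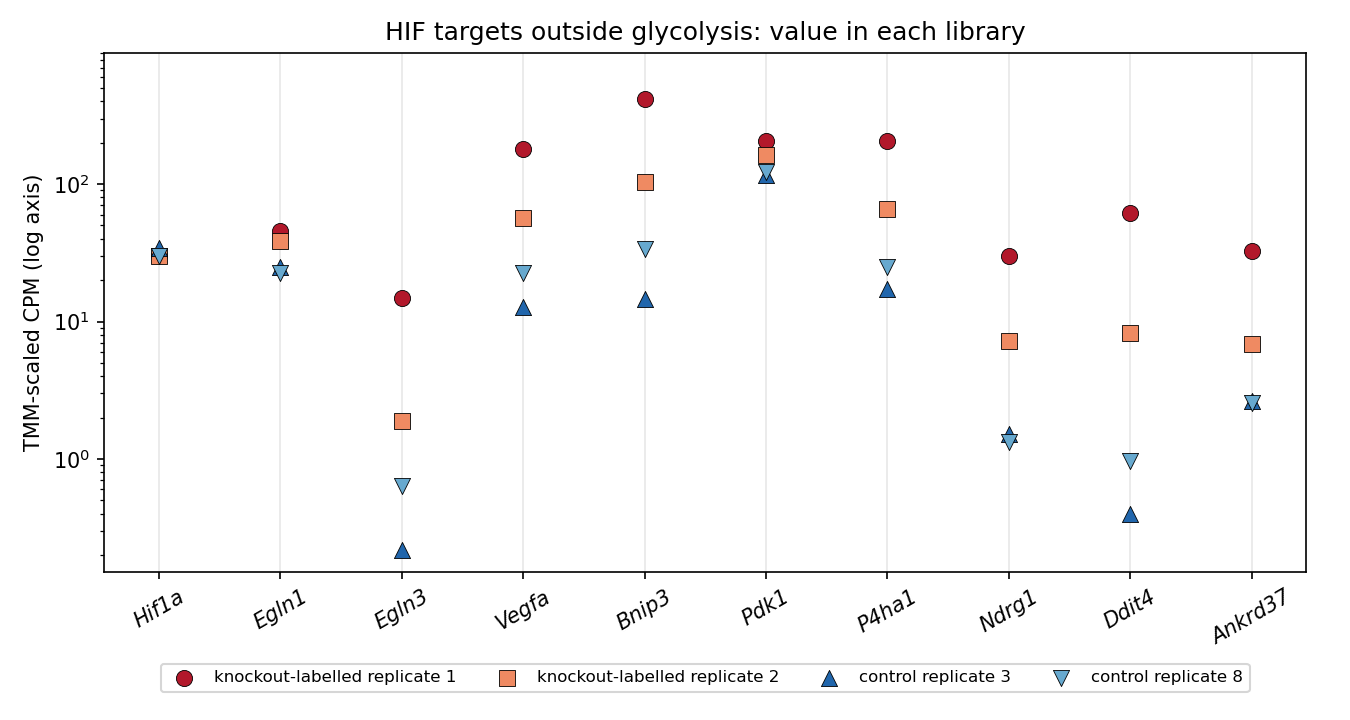
Normalised level (TMM-scaled CPM, log axis) of the 10 genes in each of the 4 libraries, 1 point per library. Hif1a lies between 29.8 and 34.4 CPM in all 4 libraries, while in the other 9 genes both knockout-labelled points lie above both control points and replicate 1 is the highest.

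Total counts ran from 28356401 to 44016809 per library, so that 1 count was worth 0.0211 to 0.0363 CPM. The knockout-labelled libraries had 67.1 and 101.6 CPM of Adar, and the controls 50.9 and 46.9 (log2 fold change 0.79, SE 0.25, edgeR adjusted p = 0.377). Counts over the whole gene include any exons left in place, so these values do not test the deletion. Of the Y-linked genes, Eif2s3y had 105.8 CPM in knockout-labelled replicate 1, 0 in replicate 2, and 72.2 and 79.6 in the controls. Ddx3y had 183.6, 0.078, 86.0 and 86.2 in the same order. By these counts the 2 knockout-labelled libraries differed in sex, and the part of sex in the results was not tested. Y-linked counts went against the labelled sex in 3 of the 4 libraries. The identity of the libraries is therefore in doubt, Adar does not settle it, and the direction of every difference given here rests on the genotype labels. Of 14 defining erythroid markers 12 were in the table, and their summed level was 72380 and 74100 CPM in the knockout-labelled pair against 104200 and 69310 for the controls, so the defining markers of the labelled cell type were abundant in every library.

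Neutrophil transcripts stood apart in knockout-labelled replicate 1. Of 11 listed neutrophil and mast cell markers 7 were in the table, with a summed level of 304.7 CPM in that library, 37.3 in replicate 2, and 41.1 and 45.3 in the controls. Elane, Ctsg, Cpa3 and Mcpt8 of that list were not among the genes of the table. All 7 measured markers were at least 2 times higher in replicate 1 than in replicate 2, and the most abundant of them, S100a9, had 112.7 against 12.6 CPM. Knockout-labelled replicate 2 had no such excess. In that library 9 of the 10 hypoxia genes were above both controls, where 34.7% of all genes were. Ddit4 and Egln3 had to be among the 9, since they entered the table by the knockout-labelled group alone. The part of neutrophil RNA in the higher values of replicate 1 was not tested.

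Other marker lists differed less between the knockout-labelled libraries in their summed levels, but some of their genes separated the groups. The summed level of 8 measured megakaryocyte markers was 161.8 and 108.3 CPM against 62.5 and 90.8 in the controls, and that of 7 measured endothelial and stromal markers was 30.7 and 34.1 against 15.95 and 14.4. These sums did not overlap between the groups. At an unadjusted p under 0.05, 3 of the 8 and 2 of the 7 were higher, against 9.82% of all genes. The 2 were Pecam1, with 11.35 and 4.54 CPM against 1.05 and 1.73, and Kdr, with 6.72 and 8.24 against 3.34 and 3.17. Cdh5 and Col1a2 of that list overlapped between the groups. Replicate 1 was 2.50 times replicate 2 in Pecam1, but the median of this ratio over the 7 was 0.815. The 10 measured macrophage markers summed to 52.1 and 28.95 against 55.7 and 33.5 CPM, a sum that Lyz2 dominated in replicate 1 (43.1 and 8.32 against 9.68 and 10.9). Their median log2 fold change was -1.44. In 5 of the 10 both knockout-labelled libraries were below both controls, against 26.7% of all genes. The same 5 were lower at an unadjusted p under 0.05, against 2.08% of all genes. These were Vcam1, C1qa, C1qc, C1qb and Emr1, with mean levels of 0.152, 0.191, 0.254, 0.297 and 0.307 times those of the controls. The controls differed as well, with replicate 8 at 0.351 (Vcam1) to 0.482 (C1qb) times replicate 3 in these genes. Levels were low: Vcam1 had 0.555 and 0.492 CPM against 5.11 and 1.80, and Emr1 1.17 and 1.45 against 6.09 and 2.45. The 10 hepatoblast markers summed to 62.7 and 74.4 against 133.4 and 54.3. No measured marker of these 4 lists was at 0 in any library. Of the 8 genes of the lymphoid list only Ptprc, which is not confined to lymphoid cells, was in the table. It had 9.56 and 1.94 CPM against 2.03 and 1.54. The part of these cells in the results was not tested, and in sorted populations read in bulk, fewer cells of a type and less RNA per cell cannot be told apart.

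**Figure D2:**
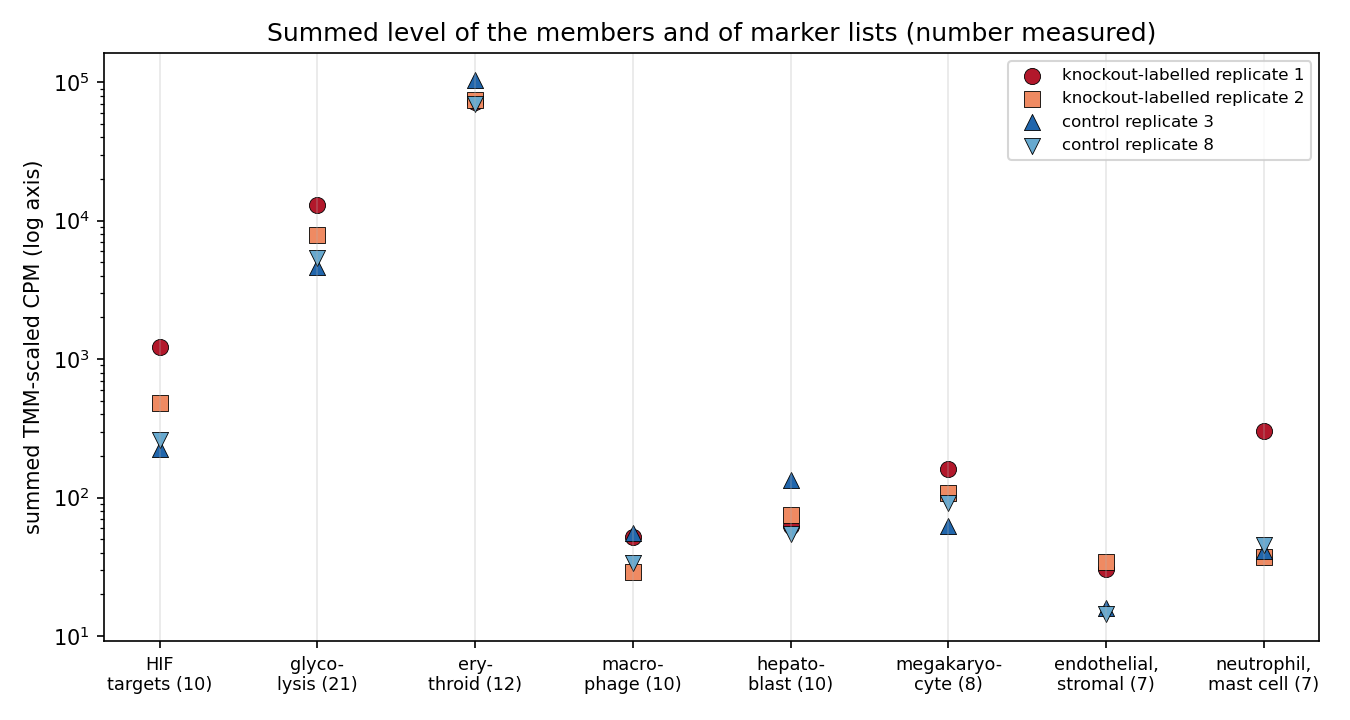
Summed level (TMM-scaled CPM, log axis) of the 10 hypoxia genes, of glycolytic genes and of 6 marker lists, 1 point per library. The neutrophil and mast cell markers are high only in knockout-labelled replicate 1 (304.7 CPM against 37.3 to 45.3), whereas the hypoxia genes and the glycolytic genes are higher in each knockout-labelled library than in either control.

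The promoters of the genes were searched for the HIF core letters to show what the group shares beyond its name. RefSeq windows on GRCm38.p6, the 250 bases before a transcript start, were found for 9 of the 10 genes, with 11 windows in all since Vegfa and Pdk1 each have an alternative start. Ndrg1 had no entry. The motifs were ACGTG and GCGTG on both strands, with overlapping matches counted separately, so that the palindrome CACGTG gives 2 matches. At least 1 match was found in 9 of the 11 windows. Every gene with an entry had a window with a match, but for Vegfa this was only the window of its other start. That window lies inside the gene, downstream of the first start, so its letters are also transcribed from the first start. The window before the first Vegfa start had 0 matches. Of all 32851 windows of this length 38.6% held a match. The windows of these genes were richer in G and C, with a median of 66.4% against 52.4% over all windows, and of the windows with at least 60% G and C, 63.8% held a match. All 7 windows of these genes at or above that level held one. A match of these letters is a description, not a bound site.

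The windows below belong to the 6 genes with an entry whose mean levels differed most between the groups, Vegfa with both of its starts, and to Hif1a, whose level did not follow them. Each is written 5′ to 3′ on the gene's strand, and capitals mark the matches.
Ddit4, chr10:59951771-59952020, minus strand: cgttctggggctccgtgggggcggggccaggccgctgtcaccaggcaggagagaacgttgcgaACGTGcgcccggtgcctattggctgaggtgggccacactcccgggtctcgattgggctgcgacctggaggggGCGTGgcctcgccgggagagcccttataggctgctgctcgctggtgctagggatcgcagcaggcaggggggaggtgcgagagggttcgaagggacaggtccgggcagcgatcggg
Egln3, chr12:54203875-54204124, minus strand: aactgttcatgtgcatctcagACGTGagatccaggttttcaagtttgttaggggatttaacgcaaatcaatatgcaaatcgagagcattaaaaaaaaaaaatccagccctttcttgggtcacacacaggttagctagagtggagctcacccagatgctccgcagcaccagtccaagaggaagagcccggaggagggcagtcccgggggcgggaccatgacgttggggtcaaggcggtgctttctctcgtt
Bnip3, chr7:138909507-138909756, minus strand: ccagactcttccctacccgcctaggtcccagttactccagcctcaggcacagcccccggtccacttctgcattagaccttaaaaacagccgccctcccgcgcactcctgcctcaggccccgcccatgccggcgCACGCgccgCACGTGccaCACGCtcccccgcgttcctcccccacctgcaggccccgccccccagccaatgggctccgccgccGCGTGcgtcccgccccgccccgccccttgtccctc
Ankrd37, chr8:45999851-46000100, minus strand: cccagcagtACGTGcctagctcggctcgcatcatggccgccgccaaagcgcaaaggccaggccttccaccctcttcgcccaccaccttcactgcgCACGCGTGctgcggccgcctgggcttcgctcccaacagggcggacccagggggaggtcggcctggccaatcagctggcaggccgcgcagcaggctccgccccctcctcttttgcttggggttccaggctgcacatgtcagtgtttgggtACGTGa
Vegfa, first start, chr17:46032378-46032627, minus strand: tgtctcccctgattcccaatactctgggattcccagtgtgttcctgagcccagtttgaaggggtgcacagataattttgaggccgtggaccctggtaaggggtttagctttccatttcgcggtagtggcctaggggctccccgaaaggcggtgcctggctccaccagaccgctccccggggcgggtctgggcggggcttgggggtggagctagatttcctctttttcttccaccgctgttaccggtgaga
Vegfa, other start, chr17:46025164-46025413, minus strand: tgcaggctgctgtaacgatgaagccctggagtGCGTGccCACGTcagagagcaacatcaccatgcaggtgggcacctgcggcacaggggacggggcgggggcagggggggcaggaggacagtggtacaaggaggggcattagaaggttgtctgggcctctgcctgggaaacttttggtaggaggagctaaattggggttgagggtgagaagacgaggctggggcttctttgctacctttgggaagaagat
P4ha1, chr10:59323046-59323295, plus strand: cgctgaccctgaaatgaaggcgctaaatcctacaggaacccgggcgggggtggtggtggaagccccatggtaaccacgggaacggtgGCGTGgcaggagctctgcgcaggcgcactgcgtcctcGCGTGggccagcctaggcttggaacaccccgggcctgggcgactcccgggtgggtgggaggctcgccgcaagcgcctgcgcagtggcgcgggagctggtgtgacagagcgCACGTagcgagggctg
Hif1a, chr12:73907617-73907866, plus strand: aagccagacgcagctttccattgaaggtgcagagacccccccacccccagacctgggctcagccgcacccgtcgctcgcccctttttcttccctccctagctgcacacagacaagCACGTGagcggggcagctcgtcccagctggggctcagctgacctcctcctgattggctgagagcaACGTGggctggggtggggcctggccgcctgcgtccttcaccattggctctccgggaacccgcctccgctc
Bnip3 had the most matches, 5, of which a pair is the palindrome. Ankrd37 had 4, P4ha1 had 3, Ddit4 had 2 and Egln3 had 1. Of the Vegfa windows, the first had 0 and the other had 2. Hif1a had 3, so the number of matches did not order the genes by their difference between groups.

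Among the sensors and their substrate, Hif1a, the oxygen-regulated subunit (ENSMUSG00000021109, chromosome 12 of NCBIM37, 75002362 to 75048517, plus strand), stood at 30.5 and 29.8 CPM in the knockout-labelled pair (replicate 1 first, as throughout) and at 34.4 and 29.9 in the controls (replicate 3 first). The groups overlapped, and the 4 libraries were close to each other. This gave a log2 fold change of -0.09 (SE 0.20, edgeR adjusted p = 0.82). A lincRNA gene, Gm15283, overlaps its exons on the opposite strand, and since the strand of the libraries is not stated, reads of the pair cannot be told apart.

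Egln1 encodes PHD2, the main prolyl hydroxylase that marks the HIF alpha subunit, and is itself a HIF target (ENSMUSG00000031987, chromosome 8, 127432496 to 127473154, minus strand). Its level was 45.7 and 38.6 CPM in the knockout-labelled pair and 24.7 and 22.7 in the controls. The groups did not overlap and the libraries within each were close, with a ratio of replicate 1 to replicate 2 of 1.18 (95% exact binomial interval 1.10 to 1.27, counting error only). On the log2 scale the difference was 0.83 (SE 0.21, edgeR adjusted p = 0.301), and it was 0.94 (adjusted p = 0.00575) when knockout-labelled replicate 2 was left out. The value was 0.71 (adjusted p = 0.1495) on dropping knockout-labelled replicate 1, and without control replicate 3 or 8 it was 0.89 (adjusted p = 0.9999) or 0.76 (adjusted p = 0.855).

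Egln3 encodes PHD3, the hydroxylase most strongly induced by hypoxia in many cells (ENSMUSG00000035105, chromosome 12, 55279968 to 55304847, minus strand). Knockout-labelled replicates 1 and 2 had 14.7 and 1.89 CPM, and the controls 0.217 and 0.634. These values stand for 451, 73, 6 and 30 counts. Both knockout-labelled values were above both controls, but replicate 1 was 7.78 times replicate 2 (interval 6.06 to 10.1), a wider gap than that between replicate 2 and the higher control, 2.98 times. Its log2 fold change of 4.203 (SE 1.09, edgeR adjusted p = 0.314) came down to 2.05 when knockout-labelled replicate 1 was left out.

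Vegfa encodes the vascular endothelial growth factor that hypoxic tissue uses to recruit blood vessels (ENSMUSG00000023951, chromosome 17, 46153942 to 46169326, minus strand). The knockout-labelled values were 179.3 and 56.8 CPM, and the control values 12.8 and 22.5. The groups did not overlap, and both were spread: replicate 1 was 3.16 times replicate 2, and control replicate 8 was 1.76 times control replicate 3 (interval 1.56 to 1.99). The difference between groups was 2.74 on the log2 scale (SE 0.59, edgeR adjusted p = 0.26).

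Bnip3, a mitochondrial outer membrane protein that takes part in removing mitochondria by autophagy, had the highest value of the set in any library (ENSMUSG00000078566, chromosome 7, 146082519 to 146101202, minus strand). Replicates 1 and 2 of the knockout-labelled group had 414.8 and 104.3 CPM, and the controls 14.6 and 33.5. Replicate 1 was 3.98 times replicate 2 (interval 3.84 to 4.12), and control replicate 8 was 2.30 times control replicate 3 (interval 2.06 to 2.57). Even the lower knockout-labelled value was 3.11 times the higher control. For Bnip3 the log2 fold change came to 3.43 (SE 0.75, edgeR adjusted p = 0.26). Bnip3l, its paralog with a known role in clearing mitochondria from maturing red cells, had 955.1 and 862.7 CPM against 881.1 and 703.6, values that overlap between the groups (log2 fold change 0.20, SE 0.24).

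Pdk1, a kinase that shuts pyruvate out of the mitochondrial citric acid cycle, had the smallest difference between groups of the 9 higher genes (ENSMUSG00000006494, chromosome 2, 71711281 to 71741915, plus strand). Levels were 207.2 and 162.7 CPM in the knockout-labelled group and 116.3 and 121.7 in the controls. The groups did not overlap, and the gap between the groups was small next to that of Bnip3. Its log2 fold change came to 0.64 (SE 0.20, edgeR adjusted p = 0.383), or 0.79 (adjusted p = 0.0127) with knockout-labelled replicate 2 left out. Dropping knockout-labelled replicate 1 gave 0.45 (adjusted p = 0.505), and the value was 0.60 (adjusted p = 0.9999) or 0.66 (adjusted p = 0.855) without control replicate 3 or 8.

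P4ha1, a catalytic subunit of the enzyme that hydroxylates proline in collagen, had 207.3 and 65.4 CPM in the knockout-labelled pair and 17.1 and 25.1 in the controls (ENSMUSG00000019916, chromosome 10, 58786044 to 58836052, plus strand). The knockout-labelled values were above both controls, with replicate 1 at 3.17 times replicate 2. This gave a log2 fold change of 2.69 (SE 0.56, edgeR adjusted p = 0.249). Its paralog P4ha2, named after its values were seen, had 4.96 and 1.22 CPM against 0.217 and 0.254, the same order of libraries at a low level (log2 fold change 3.67, SE 0.80).

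Ndrg1, a protein induced by hypoxia and by differentiation signals in many tissues, had 30.1 and 7.18 CPM in the knockout-labelled pair and 1.52 and 1.33 in the controls (ENSMUSG00000005125, chromosome 15, 66760883 to 66801202, minus strand). The controls were alike, and the lower knockout-labelled value was 4.71 times the higher of them. This gave a log2 fold change of 3.71 (SE 0.71, edgeR adjusted p = 0.20), the lowest adjusted p of the set. Its exons overlap those of Gm17035 and Gm2895 on the opposite strand.

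Ddit4 encodes REDD1, an inhibitor of the growth kinase complex mTORC1 that is induced by hypoxia and is also a known target of p53 and of ATF4 (ENSMUSG00000020108, chromosome 10, 59412423 to 59414518, minus strand). Its values were 61.1 and 8.29 CPM in the knockout-labelled group and 0.399 and 0.972 in the controls, that is 1874, 320, 11 and 46 counts. The knockout-labelled libraries differed by 7.37 times (interval 6.54 to 8.32), yet the lower of them was 8.53 times the higher control. The log2 fold change was the largest of the 10, 5.59 (SE 1.08, edgeR adjusted p = 0.202).

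Ankrd37, a small ankyrin-repeat protein known as a HIF target, had 32.3 and 6.87 CPM in the knockout-labelled pair and 2.65 and 2.54 in the controls (ENSMUSG00000050914, chromosome 8, 47082256 to 47085221, minus strand). The controls were alike and replicate 1 was 4.71 times replicate 2. This gave a log2 fold change of 2.92 (SE 0.72, edgeR adjusted p = 0.299). Its exons overlap those of Ufsp2 and Lrp2bp on the opposite strand. Of these, Ufsp2 was in the table, at 18.01 and 20.6 CPM against 17.0 and 19.7, so its values did not follow those of Ankrd37.

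**Figure D3:**
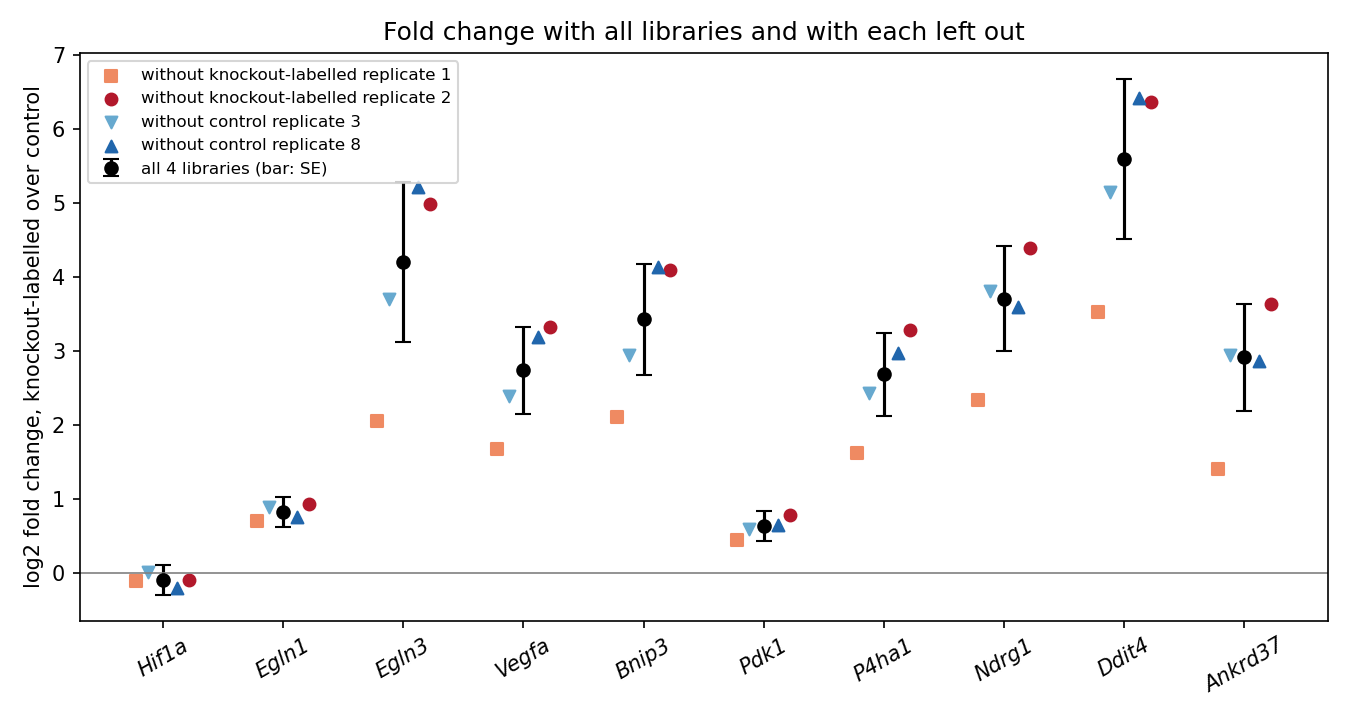
Log2 fold change of the 10 genes, knockout-labelled over control, from edgeR with all 4 libraries (black points, bars give the SE) and with each library left out (coloured points). Leaving out knockout-labelled replicate 1 gives the lowest value for the 9 genes other than Hif1a, between 0.45 for Pdk1 and 3.53 for Ddit4, all above 0.

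Leaving out single libraries moved the calls. Without knockout-labelled replicate 1, the median log2 fold change of the 10 genes was 1.65 in place of 2.83, and edgeR's quasi-likelihood test called 3 of them (1.29% of all genes were called higher). These were Ndrg1 (log2 fold change 2.34, adjusted p = 0.0090), Ddit4 (3.53, adjusted p = 0.00908) and P4ha1 (1.62, adjusted p = 0.0176). Without knockout-labelled replicate 2 the median was 3.48 and 9 were called higher, all but Hif1a, in a fit that called 17.3% of all genes higher. By the same test 0 of the 10 were called when control replicate 3 was left out (3 at an unadjusted p under 0.05, and 0.373% of all genes called higher). When control replicate 8 was left out, 0 were called as well (5 at an unadjusted p under 0.05, and 0.233% of all genes called higher). Each of these fits has 1 residual degree of freedom and takes the lone library of its group to vary like the other group. The median over all genes was within 0.07 of 0 under every scaling.

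The spread within each group had a shape of its own. Over all genes the median ratio of knockout-labelled replicate 1 to replicate 2 was 0.995, and over the 10 genes it was 3.57. Among the genes with the widest gap between knockout-labelled libraries, Egln3, Ddit4, Bnip3 and Vegfa were also at least 1.5 times higher in control replicate 8 than in control replicate 3, which 5.73% of all genes were. P4ha1 stood just under that, at 1.47 times (interval 1.32 to 1.64). Ndrg1 and Ankrd37 were level between the controls, at 0.874 times (interval 0.582 to 1.32) and 0.958 times (interval 0.710 to 1.30). The intervals for the low controls of Egln3 (1.19 to 8.56) and Ddit4 (1.24 to 5.22) are wide because they rest on few counts. Hif1a, Egln1 and Pdk1 differed little within either group.

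**Figure D4:**
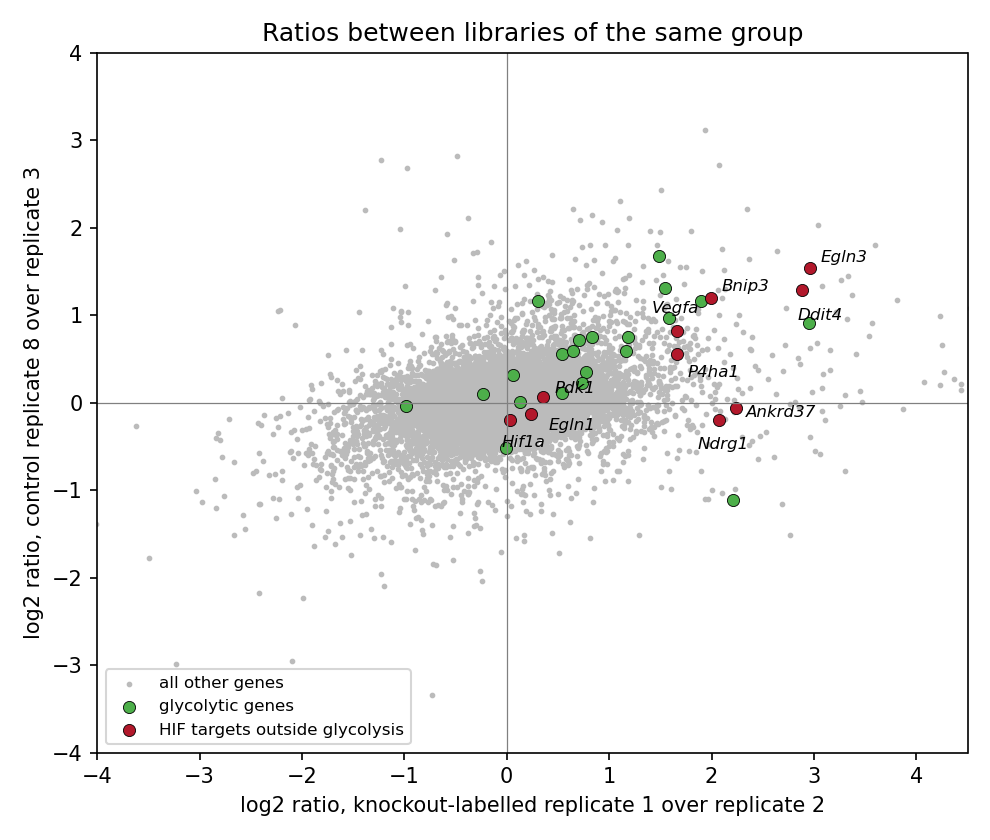
Log2 ratio between the libraries of each group, knockout-labelled replicate 1 over replicate 2 on the x axis and control replicate 8 over replicate 3 on the y axis, 1 point per gene (10701 genes plotted, 10 outside the axes). Bnip3, Vegfa, P4ha1, Egln3 and Ddit4 lie at the upper right, Ndrg1 and Ankrd37 at the right near 0 on the y axis, and Hif1a, Egln1 and Pdk1 near the centre.

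Levels of different genes were compared per kilobase of annotated exon. In the controls Pdk1 was highest at 15.3 ± 0.496 CPM per kilobase (SD, n = 2), followed by Bnip3 (10.6 ± 5.92), Egln1 (6.75 ± 0.410), Hif1a (5.45 ± 0.532), P4ha1 (5.13 ± 1.38) and Vegfa (4.10 ± 1.60). Ankrd37 (1.85 ± 0.0563), Ddit4 (0.407 ± 0.240), Ndrg1 (0.216 ± 0.0206) and Egln3 (0.160 ± 0.111) were lowest. Neighbours whose control libraries overlapped were Bnip3 and Egln1, Hif1a and P4ha1, P4ha1 and Vegfa, and Ndrg1 and Egln3. In the knockout-labelled libraries Bnip3 was first at 114.6 ± 96.9 CPM per kilobase, followed by P4ha1 (33.1 ± 24.4), Vegfa (27.5 ± 20.2), Pdk1 (23.8 ± 4.05) and Ddit4 (20.6 ± 22.2). Ankrd37 (14.0 ± 12.8), Egln1 (11.99 ± 1.41) and Hif1a (5.12 ± 0.0874) came next, and Egln3 (3.12 ± 3.40) and Ndrg1 (2.83 ± 2.46) were again last. In that group the libraries of every pair of neighbours overlapped, except those of Egln1 and Hif1a.

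The wider HIF pathway was read from a list of 21 subunits and regulators and 46 other targets outside glycolysis, of which 18 and 29 were in the table. Neither list had a member past the adjusted threshold in edgeR's quasi-likelihood test (0 of 47, with adjusted p from 0.113 to 0.832, where 0.103% of all genes passed). At an unadjusted p under 0.05, 21 were higher, against 9.82% of all genes, and 1 was lower, against 2.08%. DESeq2 called 13 of the 47 and the likelihood ratio test 12, all higher, against 3.29% and 3.09% of all genes, and limma-voom called 0, against 0.0747%. Without library scaling edgeR's quasi-likelihood test called 4 higher, against 0.793% of all genes. Leaving out knockout-labelled replicate 1 gave 4 calls, all higher, against 1.29%. Leaving out replicate 2 gave 29 higher and 2 lower, in a fit that called 17.3% of all genes higher and 15.3% lower.

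The regulators had a median log2 fold change of 0.32, against 0.00 for all genes. Both knockout-labelled libraries were above both controls in 8 of the 18, against 27.4% of all genes, and below them in 6, against 26.7%. At an unadjusted p under 0.05, 3 were higher, against 9.82% of all genes, and 0 were lower, against 2.08%. Arnt, the constant partner of the HIF alpha subunits, had means of 127.8 ± 32.2 CPM and 93.2 ± 9.67 (SD, n = 2 each, log2 fold change 0.46, SE 0.24, edgeR adjusted p = 0.439). Vhl, the substrate receptor of the ubiquitin ligase, had 14.1 and 11.0 against 9.75 and 9.74 (0.36, SE 0.25). Egln2, the third hydroxylase gene of the family, had 19.6 and 28.5 against 28.9 and 27.1 (-0.22, SE 0.25). Hif1an, the asparagine hydroxylase that limits HIF activity, had 42.0 and 57.8 against 68.0 and 62.3 (-0.38, SE 0.22). Cited2, which competes with HIF for its coactivators, had 52.7 and 33.6 against 18.1 and 34.6 (0.71, SE 0.38). Epas1, which encodes the HIF2 alpha subunit, was absent from the table.

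The other targets stood higher, with a median log2 fold change of 1.16, and both knockout-labelled libraries were above both controls in 22 of the 29, against 27.4% of all genes, and below them in 1, against 26.7%. Of the 29, 5 were under 1 CPM in both controls and entered the table through the knockout-labelled group alone, among them Flt1, Igfbp3, P4ha2 and Stc2. Over the other 24 genes the median was 0.76, with 17 above both controls, against 26.1% of the genes with a control library of at least 1 CPM. Gys1, the glycogen synthase gene, had 34.5 and 13.3 CPM against 3.34 and 3.95 (log2 fold change 2.71, SE 0.49, edgeR adjusted p = 0.187). Hmox1, which degrades haem, had 103.1 and 53.0 against 27.0 and 23.8 (1.62, SE 0.34, adjusted p = 0.25).

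Flt1, a receptor for VEGFA, had 2.74 and 2.59 CPM in the knockout-labelled pair and 0.109 and 0.275 in the controls (log2 fold change 3.69, SE 0.52, edgeR adjusted p = 0.113). Here the knockout-labelled libraries were close to each other. Igfbp3, a secreted binding protein of insulin-like growth factors, had 2.19 and 1.53 CPM against 0.254 and 0.232 (log2 fold change 2.92, SE 0.46). Kdm3a, a histone demethylase induced by HIF, had 472.6 and 140.7 CPM against 81.3 and 84.8, with a ratio between the knockout-labelled libraries like that of Vegfa (log2 fold change 1.88, SE 0.54). Tfrc, the transferrin receptor gene and an erythroid marker as well, had 5282 and 3479 against 4113 and 2614 CPM, and its groups overlapped.

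The glycolytic genes, HIF targets of the class set aside here, were measured for 21 of 22 listed names. In edgeR's quasi-likelihood test 0 passed the adjusted threshold, against 0.103% of all genes. At an unadjusted p under 0.05, 15 were higher and 0 lower, against 9.82% and 2.08% of all genes. In 18 both knockout-labelled libraries were above both controls, against 27.4%. Their median log2 fold change was 1.28, against 2.83 for the 10 genes outside glycolysis. This difference was not tested. Hk2, an inducible hexokinase, had 62.4 and 16.8 CPM against 3.23 and 7.25 (log2 fold change 2.90, SE 0.71), and Pgk1, phosphoglycerate kinase, had 1095 and 480.6 against 140.8 and 237.7 (2.06, SE 0.47). Ldha, lactate dehydrogenase, had 1036 and 635.8 against 315.3 and 520.6 CPM. Slc2a1, the glucose transporter gene, had 1571 and 1584 against 1453 and 1017 (0.35, SE 0.28). Control replicate 8 was at least 1.5 times control replicate 3 in 11 of the 21 and in 4 of the 10, against 5.73% of all genes.

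**Figure D5:**
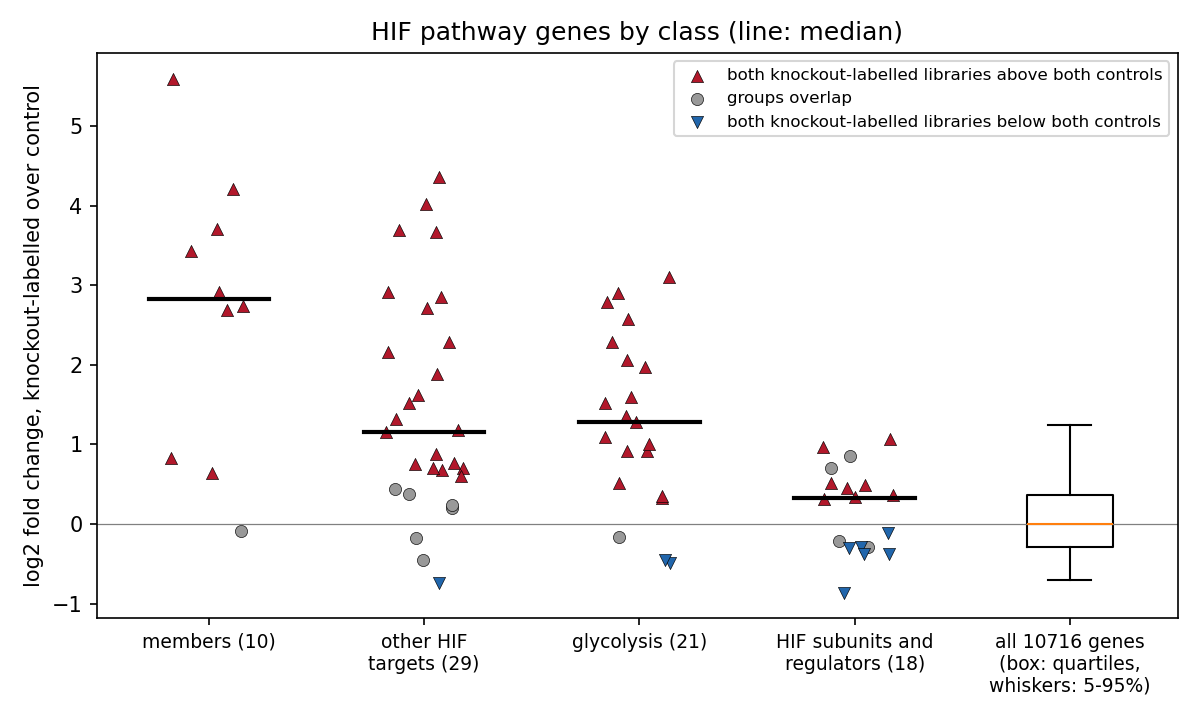
Log2 fold change, knockout-labelled over control, of the 10 genes and of 3 other classes of the HIF pathway, 1 point per gene, with the median as a line and the distribution of all 10716 genes as a box. The medians are 2.83, 1.16, 1.28 and 0.32 from left to right, and upward triangles mark genes whose knockout-labelled libraries are both above both controls.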

How the data were processed

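Raw counts per gene, whole numbers, were deposited by the authors for 4 libraries in 2 groups, and the comparison table and the separate count table held identical values (42864 of 42864). Among the tools in the submitters' processing notes are TopHat2 2.0.8, HTSeq, Trimmomatic 0.30, edgeR and limma, on builds mm9 and NCBIM37, with no roles given. Strand is not stated. The authors' p-values and adjusted p-values were copied from the authors' deposited table. Libraries were grouped by their titles. The main test was edgeR 4.0.16 (filterByExpr, which removed 0 genes, TMM scaling, glmQLFit with robust=TRUE and legacy=TRUE, quasi-likelihood F test, two-sided), adjusted over all 10716 genes with a threshold of 0.05. Standard errors are the absolute log2 fold change divided by the square root of F. Each library's values were scaled to CPM with its TMM factor. The alternatives were RLE or no scaling, other filters, DESeq2 1.42.0, limma-voom (limma 3.58.1), the likelihood ratio test, legacy=FALSE, robust=FALSE and leaving out each library. Scripts were tested on simulated data. Exon lengths and positions came from GENCODE M1 on NCBIM37, and promoter windows from RefSeq. Intervals are exact binomial at 95% and cover counting error only. The genes and lists were chosen with earlier results of these data known. Named genes were all 10 members, Adar, fixed regulators and glycolytic genes, and of the other targets the 5 with the smallest p and the 3 with the highest mean level. A gene that this rule takes is not reported here. Genes outside this rule (P4ha2, Stc2, Ufsp2, Y-linked genes and marker genes) were named after their values were seen.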

Additional observations from a re-analysis of the deposited data

How the results depend on the processing

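The count of genes called over the whole table, 11, was 374 in DESeq2, 349 in the likelihood ratio test and 87 with unscaled libraries, and from 27 to 3492 when 1 library was left out. The 0 calls among the 10 genes became 7 in DESeq2 and 7 in the likelihood ratio test, and ran from 0 to 9 when 1 library was left out. The 0 calls among 47 other pathway genes became 13 in DESeq2, 12 in the likelihood ratio test and 4 with unscaled libraries, and ran from 0 to 31 when 1 library was left out. Under RLE scaling, both other filters, limma-voom, legacy=FALSE and robust=FALSE both counts stayed at 0. The causes of these moves were not tested. Where 1 library was left out, the fit also had fewer libraries. Of the 10 log2 fold changes, 9 were above 0 under all 13 alternatives, and that of Hif1a turned from -0.09 to 0.011 without control replicate 3 (-0.20 to 0.011 with 1 library left out). Fold changes of Egln3 and Ddit4 rest on 6 and 11 counts in control replicate 3. No paired analysis was possible because the groups share no replicate numbers.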
